A study of Mus musculus with 14 samples.

Results

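The genes described here make up the core of WNT signalling: 11 WNT ligands, 14 cell-surface receptors, 8 genes of the R-spondin axis, 11 secreted or membrane inhibitors and 6 intracellular transducers and feedback targets. The members were given as a list of names, and all 50 were found among the 56941 genes of the count table. Of these, 48 reached a mean count of 10 per library and entered the test, as 48 of 19145 tested genes. Wnt10b and Dkk1 stayed below that minimum. The RNA came from aortic valve leaflets of 14 wild-type C57BL/6J male mice, 8 weeks old at the start and all fed the Breslow Western Diet, a hypercholesterolemic diet. Ctrl (4 mice) was otherwise untreated and LY (2 mice) received LY272015, which blocks the serotonin receptor HTR2B, at 3 mg/kg by intraperitoneal injection. AngII (4 mice) received angiotensin II at 1000 ng/kg/min from a subcutaneous osmotic pump for 28 days, and AngII+LY (4 mice) received both agents. The design text places both angiotensin groups 48 hours after pump removal at collection, while the study's methods describe this for a subset. The labels give dosing of the antagonist on alternate days, while the design text gives 2 doses a week. The treatment labels of LY 2 and AngII+LY 2 to 4 end the compound's name in other numbers, so groups follow the sample titles.

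WNT proteins are lipid-modified signals that bind Frizzled receptors together with a co-receptor. With LRP5 or LRP6 the signal stops the destruction complex, built on AXIN1 and APC, from degrading β-catenin, which then works with TCF and LEF factors on target genes such as Axin2, Lef1 and Notum. With ROR receptors the signal acts on cell shape and polarity without β-catenin. R-spondins, through LGR receptors, keep Frizzled receptors on the surface by removing the ligases RNF43 and ZNRF3. Secreted inhibitors hold the ligand (SFRP, FRZB and WIF1), block LRP5 and LRP6 (Dickkopf proteins DKK1 and DKK2) or strip the ligand's lipid (NOTUM). In heart valves the pathway is known for its part in valve formation and in calcific valve disease.

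Libraries held between 20990655 (AngII 4) and 73128220 (AngII 2) counts. The mitochondrial share of counts was between 4.0 and 7.52% in Ctrl, between 8.62 and 9.77% in LY, between 9.83 and 25.5% in AngII and between 10.1 and 20.2% in AngII+LY. The highest shares were those of AngII 3, AngII 4 and AngII+LY 1, and every library of both angiotensin groups was above every Ctrl library. The labelled tissue was checked with marker lists, and no gene of the valve interstitial, endothelial, smooth muscle or cardiomyocyte list was at 0 in all libraries. Summed normalized counts of 9 valve interstitial and fibroblast markers ran from 518185 to 949882 in Ctrl, from 621761 to 1009169 in LY, from 802223 to 919885 in AngII and from 313539 to 534126 in AngII+LY. Those of 10 cardiomyocyte markers ran from 394382 to 1733047 in Ctrl, from 793965 to 993090 in LY, from 387372 to 973360 in AngII and from 1006142 to 2657846 in AngII+LY. AngII+LY was thus below AngII in every library for the interstitial list and above it in every library for the cardiomyocyte list. The sums of 8 endothelial markers overlapped between all 4 groups. In such bulk samples, fewer cells of a type and less RNA per cell cannot be told apart.

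Normalized counts per kilobase of exon were averaged over the 14 mice. The WNT transcripts of the valve were dominated by a ligand and a pair of genes listed here as inhibitors. Dkk3 stood at 6780, Wnt9b at 6190 and Wif1 at 5920, but their order differed between groups. In Ctrl the means were 10100 for Dkk3, 8820 for Wif1 and 5860 for Wnt9b, and in AngII+LY they were 2810, 1810 and 7030, with Wnt9b then the highest. These 3 genes made up 59.0% of the summed level of the 50 genes. Wnt9b alone made up 80.0% of the summed level of the listed ligands. The next listed ligands, Wnt4 at 402, Wnt11 at 306, Wnt9a at 262 and Wnt5a at 235, lay more than an order of magnitude below it. Wnt7a, a ligand outside the list, stood level with Wnt4 at 402. Among the receptors Fzd1 led at 1170, ahead of Fzd6 at 446 and Fzd4 at 417. The co-receptor Lrp6 stood at 161 and its relative Lrp5 at 51.7. Rspo1 at 583 led the R-spondin axis, and Ctnnb1, which encodes β-catenin, led the transducers at 1640. The inhibitors together held 54.7% of the summed level. Within each mouse the median inhibitor exceeded the median ligand by 1.66 ± 0.677 on the log2 scale (SD over 14 mice). The lowest members were Rspo2 at 0.794, Dkk1 at 1.21 and Wnt10b at 1.85. Neighbours in this order were mostly closer than the spread between mice, as the plot of levels by role shows.

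**Figure D1:**
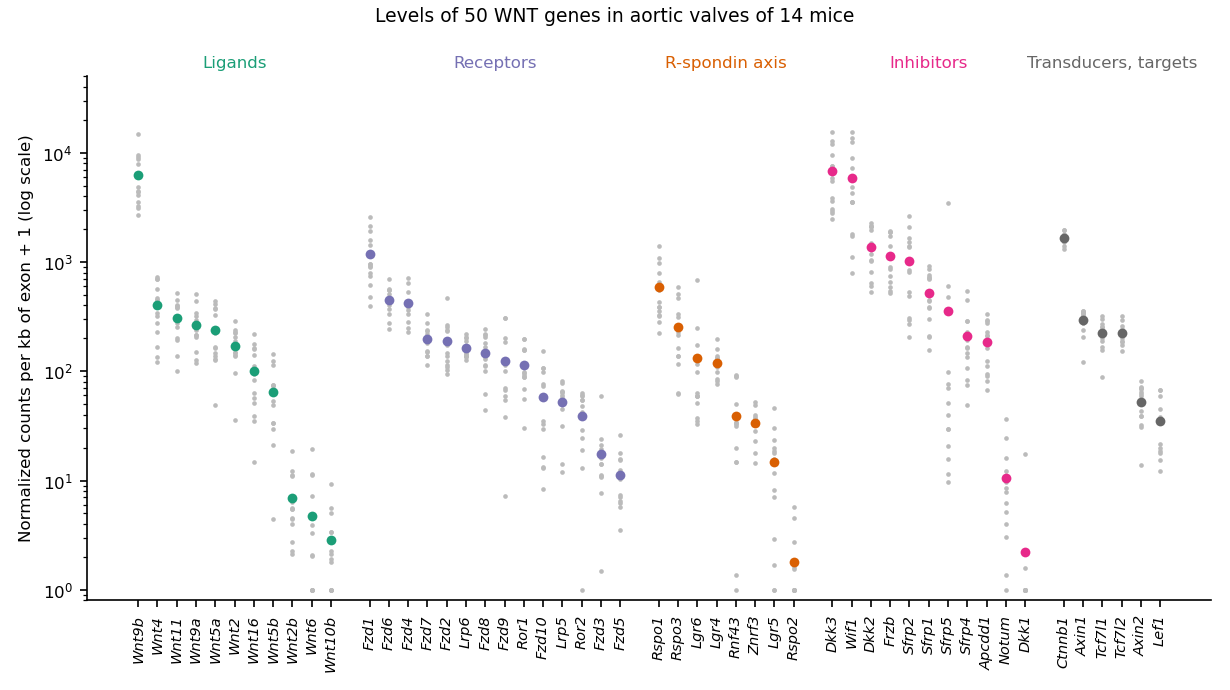
Normalized counts per kilobase of exon plus 1 (log scale) for each of the 50 WNT genes, ordered by mean level within its role. Grey points are the 14 mice and coloured points the means (ligands green, receptors purple, R-spondin axis orange, inhibitors pink, transducers and targets grey). Wnt9b, Dkk3 and Wif1 stand above all other members, while Rspo2, Dkk1 and Wnt10b lie near the floor.

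The promoters of members on which the later comparisons turn were read from the RefSeq promoter table of build GRCm38.p6, as 250-base windows. The capitals mark the core TCF/LEF motif CTTTGA, written TCAAAG on the other strand. Both Fzd1 and Frzb, a receptor and an inhibitor that were lower in every AngII+LY library than in any AngII library, hold a match. Dkk2 was lower in the same way, and its 1 window, not printed, holds none. Sfrp1, Dkk3, Wnt5a, Lrp6 and Notum, also lower in this way, have no window listed. Wif1, the second most abundant inhibitor, and Axin2, the usual β-catenin target, hold no match in the window.
Fzd1 (chr5:4758217-4758466, minus strand): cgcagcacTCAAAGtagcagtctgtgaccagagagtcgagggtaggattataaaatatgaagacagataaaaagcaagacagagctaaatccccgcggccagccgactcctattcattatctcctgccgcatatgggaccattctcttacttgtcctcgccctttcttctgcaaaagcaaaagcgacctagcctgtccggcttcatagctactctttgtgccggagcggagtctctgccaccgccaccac
Frzb (chr2:80447397-80447646, minus strand): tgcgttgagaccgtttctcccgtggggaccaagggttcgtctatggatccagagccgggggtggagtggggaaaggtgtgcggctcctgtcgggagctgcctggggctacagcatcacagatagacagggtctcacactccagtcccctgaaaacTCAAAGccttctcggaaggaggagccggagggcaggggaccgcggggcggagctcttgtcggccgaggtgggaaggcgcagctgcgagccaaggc
Wif1 (chr10:121033754-121034003, plus strand): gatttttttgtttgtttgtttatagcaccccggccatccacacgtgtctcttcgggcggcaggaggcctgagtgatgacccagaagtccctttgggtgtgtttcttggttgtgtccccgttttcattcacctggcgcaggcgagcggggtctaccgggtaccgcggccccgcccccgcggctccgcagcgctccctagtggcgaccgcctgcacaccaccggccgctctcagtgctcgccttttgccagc
Axin2 (chr11:108920099-108920348, plus strand): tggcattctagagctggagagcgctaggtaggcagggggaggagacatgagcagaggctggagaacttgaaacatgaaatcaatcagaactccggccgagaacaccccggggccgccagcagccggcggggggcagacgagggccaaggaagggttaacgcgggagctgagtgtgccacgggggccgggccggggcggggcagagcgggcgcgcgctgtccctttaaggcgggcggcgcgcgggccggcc
The match begins 242 bases before the start of Fzd1 and 95 bases before that of Frzb. Windows were listed for 33 of the 50 members, and 7 of their 42 windows (16.7%) held a match, in Dkk1, Frzb, Fzd1, Lef1, Ror1, Wnt11 and Wnt5b, against 13.8% of all 32851 windows in the table. A match describes the letters only.

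The edgeR quasi-likelihood test with Benjamini-Hochberg adjustment over 19145 genes called no member, and no gene at all, in any comparison at an adjusted p below 0.05. The members were therefore read through their unadjusted p, beside the share of all tested genes at the same threshold. For AngII against Ctrl, 4 members were higher and 6 lower at an unadjusted p below 0.05, which is 8.33% and 12.5% of the tested members against 13.4% and 11.7% of all genes. AngII+LY against AngII had 2 higher and 14 lower, or 4.17% and 29.2%, against 10.1% and 12.4% of all genes. AngII+LY against Ctrl had no member higher and 17 lower, or 35.4%, against 4.89% and 6.14%. For LY against Ctrl, 1 was higher and 1 lower against 0.627% and 0.763% of all genes. The edgeR adjusted p of these members was between 0.0775 and 0.186 for AngII against Ctrl, between 0.0768 and 0.21 for AngII+LY against AngII, and between 0.145 and 0.424 for AngII+LY against Ctrl. The members' median log2 fold change was -0.44, -0.41 and -0.69 in these 3 comparisons, where that of all genes was -0.06, -0.02 and -0.02. The comparisons share mice, AngII in the first and second, AngII+LY in the second and the last, and Ctrl in the first and the last, so their values stand side by side and are not independent.

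Members whose groups did not overlap at all were also counted. For AngII against Ctrl, 2 members were higher and 2 lower in every mouse, where 7.46% and 7.56% of all genes were. Between AngII+LY and AngII, none was higher and 8 were lower in every mouse, or 16.7% of those tested, against 5.45% and 5.66% of all genes. Between AngII+LY and Ctrl, none was higher and 13 were lower, or 27.1%, against 3.27% and 4.89%. For LY against Ctrl, 2 were higher and 2 lower, against 5.64% and 6.41%. DESeq2, the tool the study used, called more genes than edgeR. At an adjusted p below 0.05 and a log2 fold change beyond 0.5 it called 1 member higher and 3 lower for AngII against Ctrl (9.16% and 4.75% of all genes), 1 higher and 9 lower for AngII+LY against AngII (5.34% and 5.54%), and no member higher and 8 lower between AngII+LY and Ctrl (0.841% and 0.951%). For AngII against Ctrl the number of members lower at an unadjusted p below 0.05 in edgeR was 12 without AngII 2, 3 without AngII 4 and 1 without Ctrl 1. The members on the lower side, at any p, were 34 of 48, but 26 of 49 with a median of -0.01 once AngII 3 and AngII 4, the AngII libraries of high mitochondrial share, were left out, and 27 of 48 with a median of -0.09 after a correction for GC content. Without AngII+LY 1, the AngII+LY library of high mitochondrial share, 13 members were lower than in AngII and 14 lower than in Ctrl at that p.

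**Figure D2:**
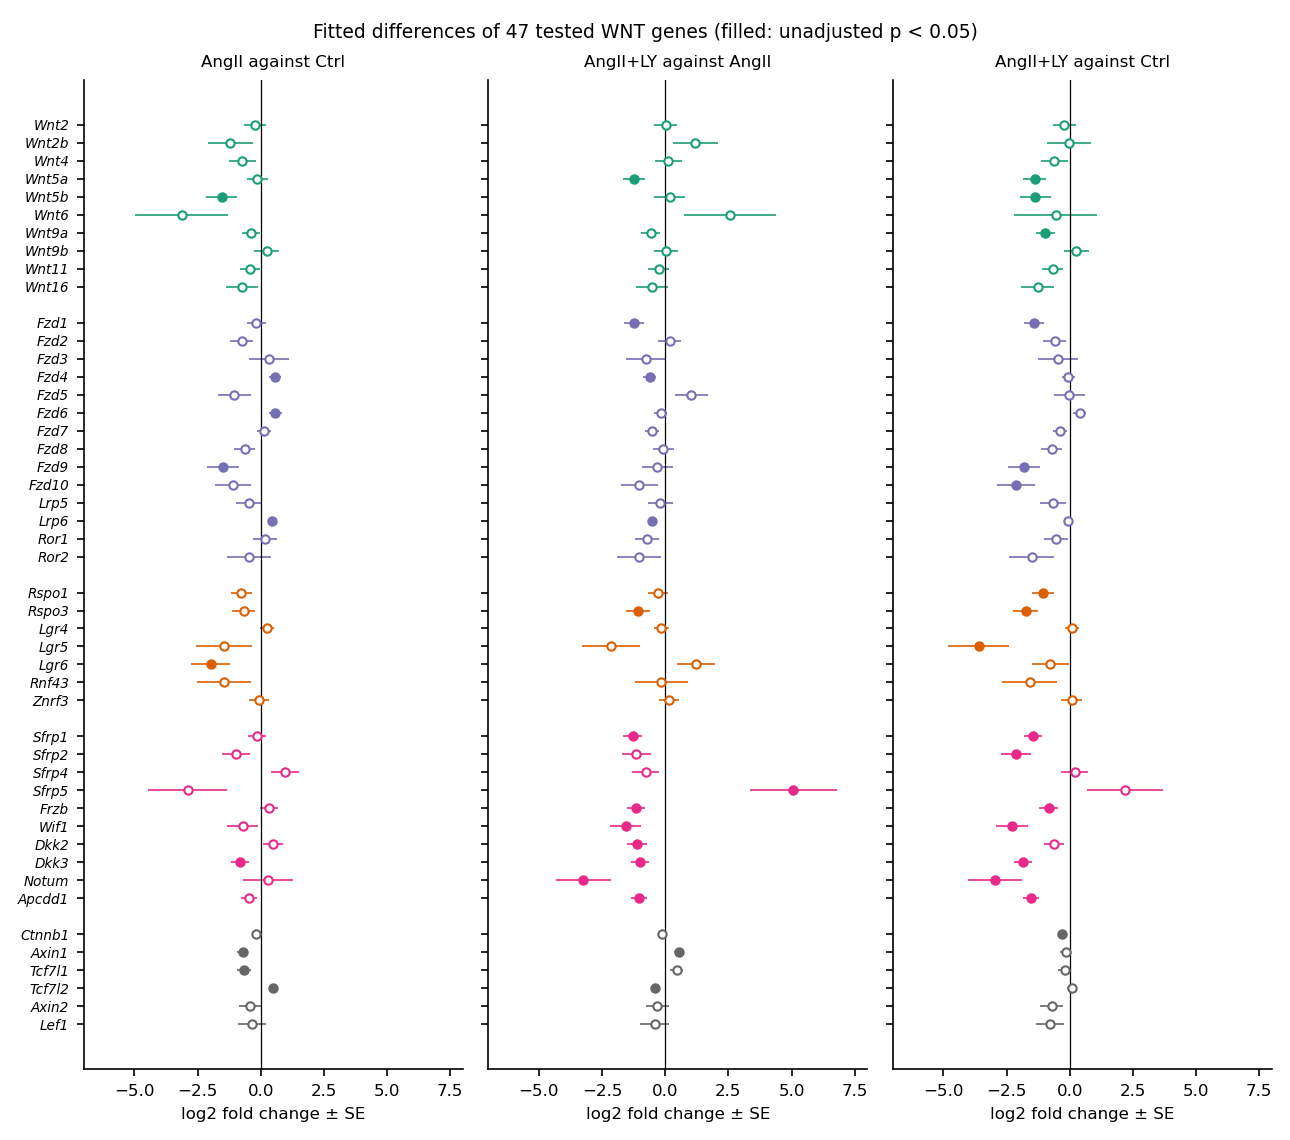
Log2 fold change with its standard error from the edgeR fit (horizontal axis) for 47 tested WNT genes, in 3 comparisons from left to right, with colours by role (ligands green, receptors purple, R-spondin axis orange, inhibitors pink, transducers and targets grey). Filled points have an unadjusted p below 0.05 and Rspo2 is left out because AngII+LY was at 0. Inhibitors lie to the left of 0 in the middle panel, where 9 of 10 were lower in AngII+LY than in AngII.

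Among the ligands, the abundant Wnt9b, which endocardial cells make over developing valves, did not separate Ctrl, AngII and AngII+LY. Wnt9b (ENSMUSG00000018486, chromosome 11, 103618189 to 103640655, build GRCm39 as for all gene positions here) had normalized counts of 14132, 14810, 41693 and 35455 in Ctrl, 16027 and 18431 in LY, 43000, 39335, 20014 and 22063 in AngII and 19783, 66610, 28803 and 12193 in AngII+LY. These 3 groups overlapped for Wnt9b (log2 fold change 0.23, SE 0.49, edgeR p = 0.645, exact permutation p = 0.543 for AngII against Ctrl), while both LY values lay below every AngII value. AngII+LY against AngII gave Wnt9b a log2 fold change of 0.03 with an SE of 0.49. Wnt4, the second of the listed ligands by level, had 2259, 1381, 3678 and 3532 in Ctrl, 2259 and 1707 in LY, 2833, 2379, 610 and 678 in AngII and 1624, 3490, 1146 and 830 in AngII+LY. All groups overlapped for Wnt4 (log2 fold change -0.73, SE 0.54, edgeR p = 0.191, exact permutation p = 0.229 for AngII against Ctrl).

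The ligand that separated AngII from Ctrl was Wnt5b, a WNT protein that mostly acts without β-catenin. Wnt5b (ENSMUSG00000030170, chromosome 6, 119409323 to 119521897) had 822, 638, 411 and 422 normalized counts in Ctrl and 385 and 701 in LY, against 276, 300, 184 and 19.9 in AngII and 162, 116, 186 and 422 in AngII+LY. Every AngII library lay below every Ctrl library, and 3 of 4 AngII+LY libraries did (log2 fold change -1.54, SE 0.61, edgeR p = 0.0242, exact permutation p = 0.0286 for AngII against Ctrl). The antagonist with angiotensin II left it near the AngII level (log2 fold change 0.17, SE 0.60, edgeR p = 0.78, exact permutation p = 0.8). DESeq2 gave Wnt5b an adjusted p of 0.0465 for AngII against Ctrl. In edgeR its p was not below 0.05 with the GC correction, without Ctrl 1, or without AngII 3 and AngII 4. The GC-corrected values still did not overlap, at 336 to 663 in Ctrl and 39.9 to 313 in AngII. The AngII 4 value rested on 6 raw counts.

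Its relative Wnt5a showed another order. Wnt5a (ENSMUSG00000021994, chromosome 14, 28226495 to 28249405), also a ligand of ROR receptors, had 3020, 1793, 1290 and 3531 in Ctrl, 1028 and 3335 in LY, 2595, 2991, 1859 and 1333 in AngII and 1109, 1183, 1008 and 390 in AngII+LY. AngII and Ctrl overlapped with a log2 fold change of -0.13 (SE 0.43), while every AngII+LY library lay below every library of both (log2 fold change -1.25, SE 0.44, edgeR p = 0.0128, exact permutation p = 0.0286 against AngII, and -1.39, SE 0.44, against Ctrl). Wnt9a, a valve ligand related to Wnt9b, was lower in all AngII+LY mice than in all Ctrl mice at 582, 842, 834 and 492 against 1335, 942, 1103 and 1973 (log2 fold change -0.96, SE 0.36, edgeR p = 0.0181, exact permutation p = 0.0286). The 6 other tested ligands, Wnt2, Wnt2b, Wnt6, Wnt11, Wnt16 and Wnt4, had no p below 0.05 in these comparisons. Over the 10 tested ligands of the list, 9 were lower in AngII than in Ctrl with a median of -0.58. After the GC correction 7 of 10 were lower with a median of -0.36, and 7 of 11 with a median of -0.06 without AngII 3 and AngII 4. In AngII+LY against AngII 4 were lower and the median was 0.03, which turned to -0.11 with the GC correction and to -0.38 without AngII 3 and AngII 4. The tested ligands outside the list were Wnt1, Wnt7a, Wnt7b and Wnt10a. Mean normalized counts in Ctrl and AngII were 13.6 and 49.8 for Wnt1, 599 and 1640 for Wnt7a and 0 and 39.8 for Wnt10a. Those of Wnt7b were 62.5 and 11.1, and AngII overlapped Ctrl for each of these genes.

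Receptors differed in direction around AngII. The most separated was Lrp6, the co-receptor of β-catenin signalling. Lrp6 (ENSMUSG00000030201, chromosome 6, 134423439 to 134544212) had 2248, 2208, 2379 and 2130 in Ctrl, 2438 and 2903 in LY, 2503, 3369, 3153 and 3087 in AngII and 2112, 1929, 2059 and 2362 in AngII+LY. AngII was above Ctrl and above AngII+LY in every mouse, with Ctrl and AngII+LY overlapping (log2 fold change 0.43, SE 0.14, edgeR p = 0.00958, exact permutation p = 0.0286 for AngII against Ctrl, then log2 fold change -0.52, SE 0.15, edgeR p = 0.00308, exact permutation p = 0.0286 for AngII+LY against AngII). The differences were small in size, 1.35 fold and 1.43 fold. With the GC correction they were 0.17 and -0.17 on the log2 scale and no longer had a p below 0.05. DESeq2 called Lrp6 lower in AngII+LY than in AngII (adjusted p = 0.01). Lrp5, the other co-receptor, gave a log2 fold change of -0.47 (SE 0.50) for AngII against Ctrl and -0.19 (SE 0.50) for AngII+LY against AngII.

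Fzd4, a WNT receptor that also binds Norrin, followed a like order. Fzd4 (ENSMUSG00000049791, chromosome 7, 89053563 to 89062342) had 1568, 2653, 2900 and 2277 in Ctrl, 4837 and 2928 in LY, 2782, 3629, 4393 and 3001 in AngII and 2897, 1711, 1934 and 2467 in AngII+LY. The AngII range touched those of Ctrl and AngII+LY (log2 fold change 0.56, SE 0.25, edgeR p = 0.0406, exact permutation p = 0.0571 against Ctrl, and log2 fold change -0.62, SE 0.25, edgeR p = 0.0254, exact permutation p = 0.0571 for AngII+LY against AngII). Fzd6, a receptor of planar cell polarity, was higher in every AngII mouse, at 3863, 3131, 3810 and 3808, than in Ctrl, at 1651, 2264, 3017 and 2896 (log2 fold change 0.57, SE 0.26, edgeR p = 0.0443, exact permutation p = 0.0286), while LY at 2946 and 2556 lay within the Ctrl range and AngII+LY at 2758, 4800, 3455 and 1873 overlapped both. After the GC correction AngII and Ctrl overlapped for Fzd6, with AngII 2 at 2866 and Ctrl 3 at 3192.

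Fzd1, the most abundant Frizzled, overlapped between AngII and Ctrl and was lowest in AngII+LY. Fzd1 (ENSMUSG00000044674, chromosome 5, 4803839 to 4808035), whose promoter is printed above, had 6703, 3860, 3744 and 10779 in Ctrl, 4038 and 7979 in LY, 6045, 8875, 3314 and 3977 in AngII and 2016, 2592, 3110 and 1659 in AngII+LY. Every AngII+LY library was below every library of the other groups (log2 fold change -1.25, SE 0.39, edgeR p = 0.0067, exact permutation p = 0.0286 against AngII, and -1.42, SE 0.39, against Ctrl). DESeq2 called it in both, with adjusted p of 0.0165 and 0.0238. Fzd9 had 702, 461, 257 and 419 in Ctrl, 280 and 696 in LY, 135, 274, 151 and 86 in AngII and 124, 14.2, 160 and 228 in AngII+LY. It was lower in AngII and AngII+LY than in Ctrl, in the latter without overlap (log2 fold change -1.50, SE 0.63, edgeR p = 0.0326, exact permutation p = 0.0571 for AngII, and -1.80, SE 0.64, for AngII+LY). Fzd10, at 93.4, 110, 38.9 and 49.8 in AngII+LY against 320, 104, 348 and 498 in Ctrl, gave log2 fold change -2.12, SE 0.74, edgeR p = 0.0124, exact permutation p = 0.0571. Of the 14 receptors, 12 were lower in AngII+LY than in AngII (median -0.53) and 13 lower than in Ctrl (median -0.56). Among them were Ror1 at -0.72 and Ror2 at -1.04, the tyrosine kinase receptors of Wnt5a, neither of which had a p below 0.05 against AngII. For AngII against Ctrl the receptor median of -0.32 turned to 0.05 with the GC correction and to 0.04 without AngII 3 and AngII 4.

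**Figure D3:**
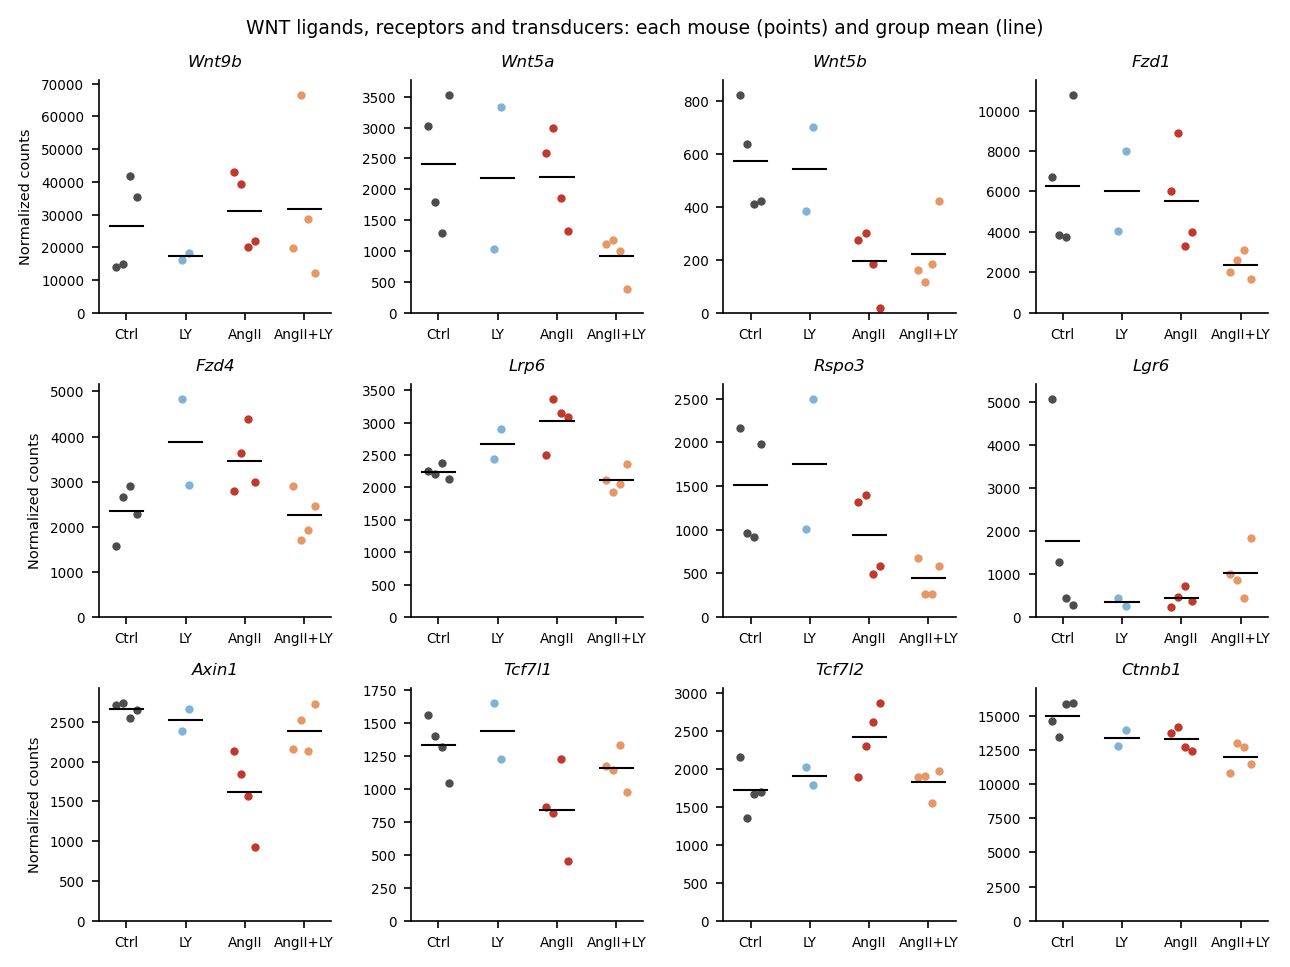
Normalized counts (vertical axes from 0) of 12 WNT ligands, receptors and transducers in each mouse (points) with the group mean (line), by group on the horizontal axis. Lrp6 is higher and Axin1 lower in all 4 AngII mice than in all 4 Ctrl mice, while Wnt5a and Fzd1 are lowest in AngII+LY.

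In the R-spondin axis the ligands Rspo1 and Rspo3 were lower in AngII+LY than in Ctrl. Rspo3 (ENSMUSG00000019880, chromosome 10, 29327285 to 29411876) had 2167, 963, 912 and 1981 in Ctrl, 1010 and 2499 in LY, 1311, 1397, 487 and 579 in AngII and 680, 257, 265 and 583 in AngII+LY. Every AngII+LY library was below every Ctrl library and the AngII values overlapped both (log2 fold change -1.75, SE 0.48, edgeR p = 0.00245, exact permutation p = 0.0286 against Ctrl, and log2 fold change -1.08, SE 0.47, edgeR p = 0.0367, exact permutation p = 0.171 against AngII). Rspo1 had 1365, 2711, 2410 and 871 in Ctrl, 3446 and 1634 in LY, 817, 1975, 548 and 960 in AngII and 958, 791, 698 and 1073 in AngII+LY. The AngII+LY range overlapped that of Ctrl through Ctrl 4 (log2 fold change -1.06, SE 0.42, edgeR p = 0.0229, exact permutation p = 0.0857 against Ctrl). Rspo2, the lowest member, had 57.9, 43.6, 0 and 0 in AngII, 0, 6.66, 21.6 and 0 in Ctrl and 7.67 and 0 in LY, and was at 0 in all 4 AngII+LY libraries, so that 2 AngII libraries carried the difference from AngII (exact permutation p = 0.429).

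The R-spondin receptors differed among themselves. Lgr5, also a known β-catenin target and stem cell marker, had 233, 151, 174 and 461 in Ctrl, 195 and 298 in LY, 181, 109, 62.5 and 19.9 in AngII and 0, 7.1, 0 and 74.7 in AngII+LY. All AngII+LY values were below all Ctrl values (log2 fold change -3.60, SE 1.21, edgeR p = 0.00999, exact permutation p = 0.0286). Lgr6 had 5076, 1284, 432 and 268 in Ctrl, 430 and 252 in LY, 234, 464, 716 and 371 in AngII and 1001, 853, 436 and 1843 in AngII+LY. Its lower value in AngII than in Ctrl (log2 fold change -1.98, SE 0.76, edgeR p = 0.0201, exact permutation p = 0.286) rested on Ctrl 1, without which the log2 fold change was -0.57 with p = 0.334 in edgeR. The summed counts of 6 smooth muscle markers were also highest in Ctrl 1, at 427193 against 22562 to 111993 in the other Ctrl libraries, and their part in the Lgr6 value was not tested. Lgr4, a further R-spondin receptor, gave 0.24 (SE 0.28) for AngII against Ctrl and -0.15 (SE 0.28) for AngII+LY against AngII. Rnf43 and Znrf3, the ligases that remove Frizzled receptors, had no p below 0.05. Over the 8 genes, 6 were lower in each of the comparisons, with medians of -0.72 for AngII against Ctrl, -0.22 for AngII+LY against AngII and -1.33 for AngII+LY against Ctrl. The second of these medians was 0.19 without AngII 2.

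The inhibitors were the role with the largest share of members lower in AngII+LY than in AngII. For AngII+LY against AngII, 9 of 10 tested inhibitors were lower, 7 of them at an unadjusted p below 0.05 (12.4% of all genes were) and 5 with every AngII+LY library below every AngII library (5.66% of all genes). Their median log2 fold change was -1.13, and it was -1.49 against Ctrl, where 8 of 10 were lower. For AngII against Ctrl 6 were lower and 4 higher with a median of -0.32, which was -0.08 with the GC correction and 0.10 without AngII 3 and AngII 4. The lower side was not shared by 11 further tested WNT inhibitors outside the list. For AngII+LY against AngII, 5 of those 11 were lower and 6 higher, with a median of 0.14. At an unadjusted p below 0.05, 0 of the 11 were lower and 1 was higher. Among the listed inhibitors, the secreted WNT-binding proteins Sfrp1 and Frzb show the order most plainly.

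Sfrp1 (ENSMUSG00000031548, chromosome 8, 23901263 to 23939648) had 4389, 3417, 1447 and 3337 in Ctrl, 2131 and 4164 in LY, 3498, 3696, 2181 and 1879 in AngII and 998, 1012, 756 and 1830 in AngII+LY. AngII lay within the Ctrl range, and every AngII+LY library was below every AngII library (log2 fold change -1.29, SE 0.37, edgeR p = 0.00359, exact permutation p = 0.0286). Frzb (ENSMUSG00000027004, chromosome 2, 80242313 to 80278304), whose promoter is printed above, had 5046, 2691, 2104 and 6866 in Ctrl, 3080 and 6823 in LY, 4127, 6797, 6161 and 3898 in AngII and 2337, 1954, 3203 and 1871 in AngII+LY. Again all AngII+LY values were below all AngII values, though not below all Ctrl values (log2 fold change -1.16, SE 0.37, edgeR p = 0.00692, exact permutation p = 0.0286 against AngII, and -0.84, SE 0.37, against Ctrl). Sfrp2, of the same family, had 698, 1121, 1217 and 471 in AngII+LY, below all of 6067, 3511, 1875 and 3800 in Ctrl (log2 fold change -2.12, SE 0.58, edgeR p = 0.00243, exact permutation p = 0.0286), while AngII at 3244, 3171, 673 and 615 spanned both.

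The Dickkopf genes were split around AngII. Dkk3 (ENSMUSG00000030772, chromosome 7, 111712904 to 111758760), a divergent Dickkopf protein and the most abundant member on average, had 88004, 64918, 39779 and 82176 in Ctrl, 37621 and 104773 in LY, 51878, 51526, 26514 and 24734 in AngII and 20847, 16882, 19024 and 20030 in AngII+LY. Every AngII+LY library was below every library of all other groups, while AngII overlapped Ctrl. The statistics were log2 fold change -0.83, SE 0.35, edgeR p = 0.0314, exact permutation p = 0.0857 for AngII against Ctrl, log2 fold change -1.01, SE 0.35, edgeR p = 0.0116, exact permutation p = 0.0286 for AngII+LY against AngII and log2 fold change -1.84, SE 0.36, edgeR p = 0.00014, exact permutation p = 0.0286 for AngII+LY against Ctrl. Dkk2 (ENSMUSG00000028031, chromosome 3, 131790336 to 131886065), which binds LRP5 and LRP6, had 3444, 2543, 8783 and 9141 in Ctrl, 4401 and 5056 in LY, 9642, 8289, 6314 and 9126 in AngII and 4344, 6131, 2697 and 2231 in AngII+LY. Its AngII values overlapped the upper Ctrl values (log2 fold change 0.48, SE 0.40, edgeR p = 0.246, exact permutation p = 0.286) and lay above every AngII+LY library (log2 fold change -1.12, SE 0.40, edgeR p = 0.0146, exact permutation p = 0.0286).

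Wif1 (ENSMUSG00000020218, chromosome 10, 120869865 to 120936555), which holds WNT ligands in the matrix, had 31078, 12114, 10744 and 34501 in Ctrl, 8836 and 38712 in LY, 22527, 18159, 8920 and 4311 in AngII and 8783, 4527, 2802 and 2005 in AngII+LY. All AngII+LY values were below all Ctrl values, while 1 AngII library reached into the AngII+LY range (log2 fold change -2.29, SE 0.64, edgeR p = 0.00301, exact permutation p = 0.0286 against Ctrl, and log2 fold change -1.57, SE 0.62, edgeR p = 0.0244, exact permutation p = 0.114 against AngII). Apcdd1, a membrane inhibitor that binds WNT and LRP proteins, had 1076, 1450, 1805 and 1306 in AngII+LY, below all of 4734, 3406, 3449 and 4654 in Ctrl (log2 fold change -1.53, SE 0.33, edgeR p = 0.000391, exact permutation p = 0.0286), and overlapped 3654, 4453, 1989 and 1506 in AngII (log2 fold change -1.04, SE 0.33, edgeR p = 0.0065, exact permutation p = 0.0571). Notum, the lipid-removing enzyme and feedback target, was sparse, with 80.7, 15.8, 48.6 and 125 in Ctrl, 27.6 and 46.4 in LY, 60.0, 191, 39.7 and 36.4 in AngII and 22, 10.7, 0 and 1.92 in AngII+LY. The AngII+LY values lay below all AngII values (log2 fold change -3.24, SE 1.09, edgeR p = 0.00977, exact permutation p = 0.0286).

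Sfrp5 was the exception among the inhibitors. It had 37.3, 1134, 142 and 184 in Ctrl, 910 and 74.4 in LY, 27.9, 19.8, 133 and 16.5 in AngII and 54.9, 94.7, 54.7 and 6564 in AngII+LY, so its higher mean in AngII+LY (log2 fold change 5.07, SE 1.72, edgeR p = 0.0106, exact permutation p = 0.371) came from 1 library. Without AngII+LY 4 the log2 fold change was 0.45 and its edgeR p was no longer below 0.05. The mice with high Sfrp5 were also those with the highest counts of Myl7, an atrial myosin gene, at 208649 in Ctrl 2, 35811 in LY 1 and 155866 in AngII+LY 4, against 1842 to 15605 in the others, and with the cardiomyocyte score, whose list includes Myl7, as a covariate the log2 fold change of Sfrp5 was -0.39. Sfrp4, higher in AngII than in Ctrl by 0.96 (SE 0.55) and at -0.77 (SE 0.54) in AngII+LY against AngII, had no p below 0.05.

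Marker genes of other cell types differed in the same comparison. All 9 interstitial and fibroblast markers were lower in AngII+LY than in AngII, 5 at p below 0.05 in edgeR and 4 with no overlap, with a median log2 fold change of -0.82. All 10 cardiomyocyte markers were higher, 8 at p below 0.05 in edgeR and 5 with no overlap, with a median of 1.48. When a cardiomyocyte score, the mean log2 level of the list in each mouse, was added to the edgeR fit, 9 of 10 inhibitors were lower. They were not the same 9 as without the score, since Sfrp5 was now among them. Of these 9, 1 had p below 0.05, and the median of the 10 was -0.71. Over all members that fit left 0 higher and 5 lower at p below 0.05 for AngII+LY against AngII. Between AngII+LY and Ctrl, where 17 members were lower, 6 of 9 interstitial and 5 of 8 macrophage markers were lower at that p (medians -0.86 and -0.89), 3 of 8 adipocyte markers were lower (median -1.48) and 5 of 10 cardiomyocyte markers were higher (median 1.05). Between AngII and Ctrl, 6 of 8 adipocyte, 5 of 8 macrophage and 5 of 6 smooth muscle markers were lower, with medians of -1.58, -1.42 and -2.96. The smooth muscle difference came from Ctrl 1 and Ctrl 2, with summed counts of 427193 and 111993. Ctrl 3 and Ctrl 4, at 44009 and 22562, lay within the AngII range of 20912 to 53742, and no smooth muscle marker separated AngII from Ctrl. The part of these lists, beyond the cardiomyocyte score, was not tested. For AngII+LY against AngII, DESeq2 gave adjusted p of 0.011 for Sfrp1, 0.0197 for Frzb, 0.0376 for Dkk2, 0.0292 for Dkk3, 0.0408 for Wif1 and 0.0203 for Apcdd1.

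**Figure D4:**
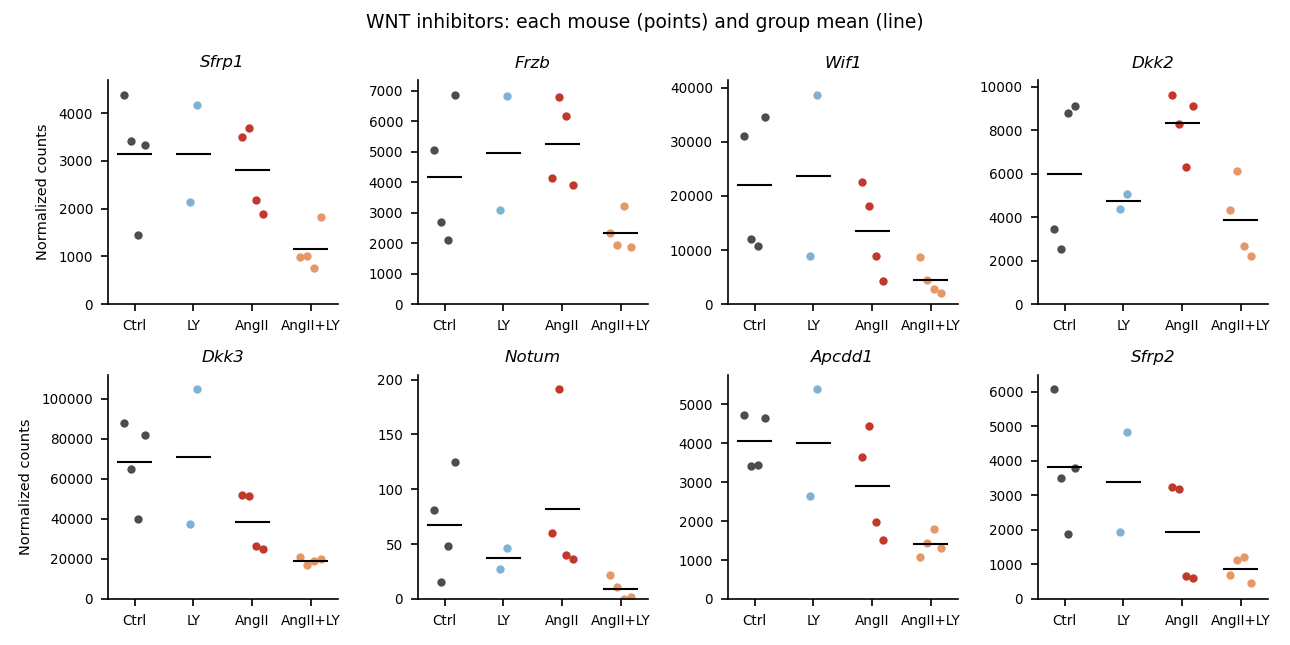
Normalized counts (vertical axes from 0) of 8 WNT inhibitors in each mouse (points) with the group mean (line), by group on the horizontal axis. AngII+LY lies below every AngII mouse for Sfrp1, Frzb, Dkk2, Dkk3 and Notum and overlaps AngII for Wif1, Apcdd1 and Sfrp2.

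Of the intracellular genes, Axin1, the scaffold of the destruction complex, separated AngII from Ctrl. Axin1 (ENSMUSG00000024182, chromosome 17, 26350235 to 26414789) had 2716, 2739, 2543 and 2647 in Ctrl, 2380 and 2661 in LY, 2135, 1842, 1568 and 933 in AngII and 2154, 2517, 2131 and 2726 in AngII+LY. All AngII values were below all Ctrl values, and the lowest AngII+LY value stood beside the highest AngII value (log2 fold change -0.71, SE 0.21, edgeR p = 0.00453, exact permutation p = 0.0286 for AngII against Ctrl, and log2 fold change 0.55, SE 0.21, edgeR p = 0.0201, exact permutation p = 0.0571 for AngII+LY against AngII). The first of these was -0.35 after the GC correction, still with a p below 0.05. DESeq2 called Axin1 in both comparisons, with adjusted p of 0.0153 and 0.0494.

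The TCF factors that bring β-catenin to DNA differed in direction. Tcf7l2 had 2158, 1358, 1664 and 1689 in Ctrl, 2028 and 1793 in LY, 1898, 2304, 2616 and 2869 in AngII and 1895, 1909, 1552 and 1976 in AngII+LY. AngII was higher with an overlap (log2 fold change 0.50, SE 0.18, edgeR p = 0.0165, exact permutation p = 0.0571 against Ctrl, and log2 fold change -0.40, SE 0.18, edgeR p = 0.0447, exact permutation p = 0.0857 for AngII+LY against AngII). Tcf7l1, which mostly represses, had 1563, 1402, 1320 and 1043 in Ctrl, 1653 and 1230 in LY, 862, 818, 1227 and 453 in AngII and 1173, 1146, 1332 and 979 in AngII+LY. It was lower in AngII than in Ctrl with an overlap (log2 fold change -0.66, SE 0.26, edgeR p = 0.023, exact permutation p = 0.0571), and this difference was -0.05 (p = 0.837 in edgeR) after the GC correction.

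The level of β-catenin mRNA varied little. Ctnnb1 had 14607, 13463, 15861 and 15939 in Ctrl, 12784 and 13926 in LY, 13754, 14138, 12693 and 12448 in AngII and 10813, 13003, 12710 and 11501 in AngII+LY. All AngII+LY values were below all Ctrl values by a small amount (log2 fold change -0.32, SE 0.14, edgeR p = 0.039, exact permutation p = 0.0286). Axin2 and Lef1 are feedback targets of the pathway, whose activity itself was not measured. Axin2 had 419, 437, 471 and 479 in Ctrl, 294 and 405 in LY, 554, 494, 209 and 89.3 in AngII and 265, 350, 262 and 216 in AngII+LY. All AngII+LY values were below all Ctrl values (log2 fold change -0.72, SE 0.44, edgeR p = 0.12, exact permutation p = 0.0286), as were both LY values. The AngII values of Axin2 overlapped those of Ctrl and AngII+LY. Lef1 gave -0.35 (SE 0.56) for AngII against Ctrl and -0.77 (SE 0.56) for AngII+LY against Ctrl.

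The antagonist without angiotensin II was measured in 2 mice, for which the smallest p that the exact permutation test allows against 4 is 0.133. Both LY mice lay above all Ctrl mice for Fzd4 (log2 fold change 0.72, SE 0.29, edgeR p = 0.027, exact permutation p = 0.133), and Lgr6 was lower with an overlap (log2 fold change -2.37, SE 1.01, edgeR p = 0.0338, exact permutation p = 0.267). Without LY 1 the Fzd4 difference was 0.32, and without Ctrl 1 the Lgr6 difference was -0.96. Lrp6 was also above all Ctrl mice in both LY mice, while Wnt6 and Axin2 were below them. The 10 tested inhibitors had a median log2 fold change of -0.01 for LY against Ctrl, with Apcdd1 at -0.01 (SE 0.40), Frzb at 0.25 (SE 0.44) and Dkk3 at 0.05 (SE 0.42). Whether the antagonist's difference depended on angiotensin II was tested by the interaction in the same fit. At an unadjusted p below 0.05, 1 member had a higher and 4 a lower difference with angiotensin II than without, against 5.66% and 7.64% of all genes. These were Lgr6 at 3.58 (SE 1.25), Fzd4 at -1.34 (SE 0.38), Frzb at -1.41 (SE 0.57), Sfrp1 at -1.29 (SE 0.57) and Lrp6 at -0.77 (SE 0.23). None passed the edgeR adjustment (smallest adjusted p among members 0.295), and DESeq2 called Lrp6 alone (adjusted p = 0.0497), where it called 0.637% of all genes lower.

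The wider pathway was read from a list of 72 further WNT genes, of which 63 were tested. For AngII against Ctrl, 12 were higher and 7 lower at p below 0.05 in edgeR, or 19.0% and 11.1% against 13.4% and 11.7% of all genes, with a median of -0.17. In AngII+LY against AngII 1 was higher and 8 lower, or 1.59% and 12.7% against 10.1% and 12.4% of all genes, with a median of -0.01. Wls, which carries WNT ligands to the cell surface, had the smallest p in both. It had 12753, 9369, 9695 and 17159 in Ctrl, 11087 and 15860 in LY, 17977, 24157, 21897 and 30802 in AngII and 10203, 7802, 10372 and 8068 in AngII+LY. Every AngII library was above every Ctrl and every AngII+LY library (log2 fold change 0.95, SE 0.24, edgeR p = 0.0012, exact permutation p = 0.0286 for AngII against Ctrl, and log2 fold change -1.38, SE 0.24, edgeR p = 4.53e-05, exact permutation p = 0.0286 for AngII+LY against AngII). Its edgeR adjusted p was 0.0584 and 0.0568, that of DESeq2 0.00238 and 2.68e-05, and the GC-corrected values were 0.28 and -0.74.

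Other genes of this list with the smallest p for AngII against Ctrl were Csnk1a1, the kinase that first phosphorylates β-catenin (log2 fold change 0.66, SE 0.18, edgeR p = 0.00262, exact permutation p = 0.0571), and the WNT target Cd44 (log2 fold change 1.55, SE 0.43, edgeR p = 0.0027, exact permutation p = 0.0286). Wnt10a, a further ligand, was at 0 in all Ctrl libraries and had 0, 23.2, 82.9 and 52.9 normalized counts in AngII. For AngII+LY against AngII they were the target Tnfrsf19 (log2 fold change -1.36, SE 0.44, edgeR p = 0.00764, exact permutation p = 0.0286), the scaffold Apc (log2 fold change -0.67, SE 0.22, edgeR p = 0.0101, exact permutation p = 0.0286) and Tnks, which marks axin for degradation (log2 fold change -0.50, SE 0.18, edgeR p = 0.0123, exact permutation p = 0.0571). Csnk1a1 was 0.14 and Apc -0.32 after the GC correction.

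The differences of the members around AngII followed the base composition of their exons. The GC content of tested members ran from 40.5% for Fzd3 to 62.2% for Fzd9, with a median of 51.8%. Over the 48 tested members, Spearman's rho between the log2 fold change and GC content was -0.52 for AngII against Ctrl, 0.36 for AngII+LY against AngII and -0.09 for AngII+LY against Ctrl. These genes share the same libraries, so the values describe them and carry no test. After the counts of each library were fitted against GC content and corrected, rho was -0.16, 0.05 and -0.04, and the sign of 9, 6 and 5 members turned. The correction also moved the median of all genes for AngII+LY against Ctrl from -0.02 to 0.13 and that for AngII against Ctrl to 0.08. Of the members described here, those that kept a p below 0.05 in edgeR with the correction included Sfrp1, at -1.46, Fzd1, at -1.53, and Dkk3, at -1.09, for AngII+LY against AngII.

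**Figure D5:**
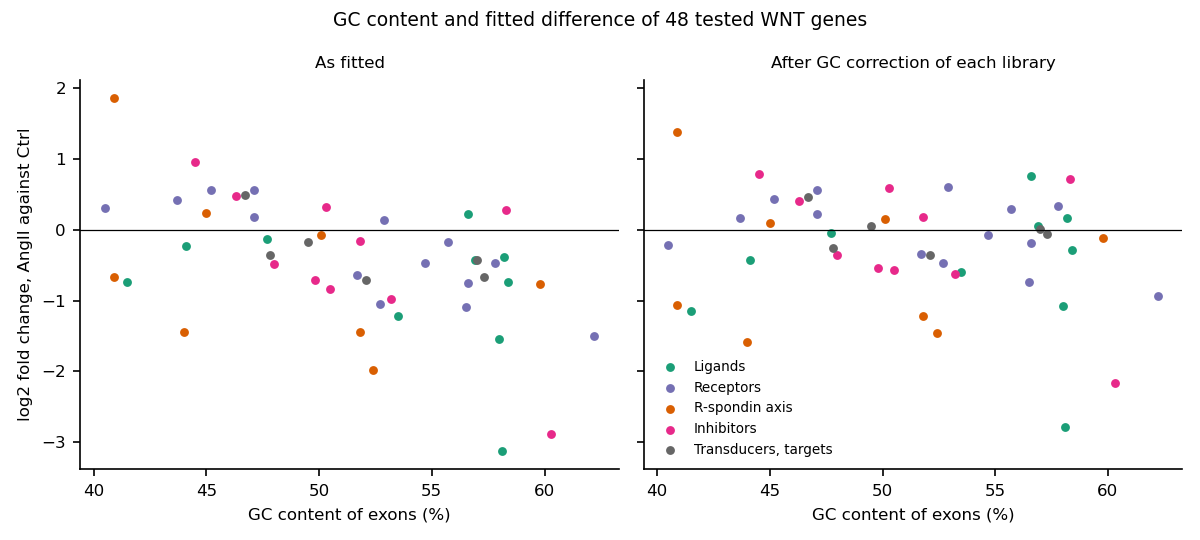
Log2 fold change of AngII against Ctrl (vertical axis) against the GC content of exons in percent (horizontal axis) for the 48 tested WNT genes, as fitted (left) and after the GC correction of each library (right), coloured by role (ligands green, receptors purple, R-spondin axis orange, inhibitors pink, transducers and targets grey). Spearman's rho is -0.52 on the left and -0.16 on the right.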

How the data were processed

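The authors extracted RNA from dissected aortic valve leaflets and, per the labels and the study's methods, trimmed reads, aligned them with HISAT2 to GRCm39 and counted reads per gene with featureCounts. Library strandedness and the setting used in counting were not given in the sources used here, so overlapping and antisense genes cannot be told apart. The deposited table is named as normalized but holds whole-number counts whose totals differ between libraries (20990655 to 73128220), so the values were treated as raw counts. Of the counts from 1 to 20, 57.9 to 65.7% in each library were even, so some fragments may have been counted as 2 reads. Low counts, the minimum mean count and the p-values of low genes may then rest on fewer fragments than they show. All 14 count columns matched a sample. Gene IDs were paired with symbols and positions through the GENCODE annotation of GRCm39, and 618 IDs with 0.0361% of all counts had no match. Groups followed the sample titles. The study's own tests were made with DESeq2.

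Counts were normalized by TMM, genes averaging 10 or more counts per library were kept (19145 genes), and all 4 groups were fitted together with the quasi-likelihood test of edgeR 4.0.16 with its default settings (R 4.3.3). P-values were adjusted by Benjamini-Hochberg over all tested genes. A call needed an adjusted p below 0.05 and a log2 fold change beyond 0.5. Normalized counts in the text are TMM-normalized, and levels between genes were divided by exon length. The exact permutation tests were two-sided over single mice, and with 4 against 4 mice the smallest p they allow is 0.0286. Single fold changes were compared with DESeq2 1.42.0, other scalings and filters, a loess correction for exon GC content, a cardiomyocyte score as covariate, a replicate block and leaving out mice. The scripts were tested on simulated counts with 200 changed genes.

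The members and the lists of markers and further WNT genes were chosen with earlier results of these data known. The 25 members described singly by rule were those with an unadjusted p below 0.05 in AngII against Ctrl or AngII+LY against AngII and the 2 most abundant of each role, and of the further WNT genes the 4 with the smallest p in each of these comparisons. Wnt9a, Fzd10, Lgr5 and Sfrp2 were added for their p in AngII+LY against Ctrl, and Axin2, Lef1, Sfrp4, Lgr4, Lrp5, Ror1 and Ror2 for their role, all after their values were seen.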

Additional observations from a re-analysis of the deposited data

Results flagged for a closer look

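In each group of 4 mice, the values of the 25 members described singly were checked for a mouse far from the others by Dixon's criterion, and 5 of 75 groups met it. For normally distributed values chance flags about 1 in 20 groups, and the rate for unlogged counts such as these was not tested. Sfrp5 met it in all 3 groups of 4. It had 1134 normalized counts in Ctrl 2, against 37.3 to 184 in the other Ctrl mice. In AngII 3 it had 133, against 16.5 to 27.9, and in AngII+LY 4 it had 6564, against 54.7 to 94.7. The atrial gene Myl7 was highest in Ctrl 2 and AngII+LY 4, at 208649 and 155866 normalized counts, but lowest of all mice in AngII 3, at 1842. Notum had 191 in AngII 2, against 36.4 to 60.0 in the other AngII mice. Fzd6 had 3131 in AngII 2, against 3808 to 3863. That value of Fzd6 remained above every Ctrl value, though not after the GC correction, and those of Notum and Sfrp5 raised the means of their groups.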

How the results depend on the processing

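DESeq2 called 4 members for AngII against Ctrl, 10 and 8 for AngII+LY against AngII and against Ctrl, none for LY against Ctrl and 1 for the interaction, where edgeR called none. Over all genes it called 2663, 2082, 343, 21 and 203, and it left 1 member higher at an unadjusted p below 0.05 in AngII+LY against AngII. With no filter on low counts edgeR called 123, 1 and 13 genes in the first 3 comparisons, and the interaction had 2 members higher and 7 lower at that p. The newer quasi-likelihood version of edgeR, added after seeing the data because the version listed as an alternative proved to be the default, called 555 genes for AngII against Ctrl and 176 for AngII+LY against AngII, no member among them, and left 2 members higher in the interaction.

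The GC correction left 2 members higher and 2 lower for AngII against Ctrl. Replicate numbers did not pair the mice, since over 18 pairs with the same number the correlation of deviations lay between -0.128 and 0.0897 and 2 of 14 mice correlated best with a mouse of their own number. The replicate block left 2 members higher for AngII against Ctrl and 2 lower in the interaction. With the replicate block and the GC correction 2 were lower for AngII against Ctrl, 1 was higher for AngII+LY against AngII, 0 were lower for LY against Ctrl, and 1 gene was called for AngII+LY against Ctrl. The cardiomyocyte covariate left 0 higher and 5 lower for AngII+LY against AngII, 1 higher against Ctrl and 2 lower in the interaction, and reversed Sfrp5 for AngII+LY against AngII to -0.39.

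Leaving out AngII 3 and AngII 4 together, chosen after seeing the data, left 1 higher and 2 lower for AngII against Ctrl and 1 higher in AngII+LY against AngII. It gave 11 lower in the interaction and, for AngII+LY against Ctrl, 61 called genes with 2 members, Dkk3 (edgeR adjusted p = 0.0447) and Apcdd1 (edgeR adjusted p = 0.0344). Leaving out each mouse in turn, edgeR called 0 to 2 members and 0 to 1725 genes for AngII against Ctrl, with 2 to 4 members higher and 1 to 12 lower. Between AngII+LY and AngII it called 0 to 1 members and 0 to 844 genes, with 0 to 3 higher and 10 to 15 lower. Between AngII+LY and Ctrl it called 0 to 3 genes, with 0 to 1 members higher and 14 to 19 lower. For LY against Ctrl 0 to 1 were higher and 0 to 1 lower, and for the interaction 0 to 3 and 2 to 10. The highest gene counts came without AngII 1, where Lrp6 and Axin1 were called for AngII against Ctrl (edgeR adjusted p = 0.0453 and 0.0329) and Lrp6 for AngII+LY against AngII (0.0436). The causes of these changes were not tested. Of 42 single differences at an unadjusted p below 0.05, 40 stayed below it under DESeq2, 29 under the GC correction, 24 under the covariate and 23 when the mouse that mattered most was left out, and none but Sfrp5 changed sign. Pseudocounts of 0.1 and 10 moved the gap between inhibitors and ligands to 1.67 and 1.6. Only 2 mice were in LY, and what could be detected at these group sizes and depths was not tested.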
